A study of Mus musculus with 12 samples.

Results

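The genes described are 10 that encode matricellular proteins and fibronectin, namely Thbs1, Thbs2, Thbs3, Tnc, Postn, Sparc, Spp1, Ctgf, Cyr61 and Fn1. They were chosen by name from the 22630 genes in the deposited files, and all 10 were present and passed the filter on low counts that left 17561 genes for testing. RNA was sequenced from 12 subcutaneous tumors of KCip53-1, a single mouse pancreatic cancer cell line. Of these, 4 grew in hosts never given dox (no-dox), 4 in hosts given it throughout (plus-dox) and 4 in hosts from which it was withdrawn (off-dox). Per the paper, the line had been sorted for the transgene's dsRed reporter and grown in culture with dox. The no-dox label therefore describes the hosts and not the earlier history of the injected cells. All 12 tumors shared 1 genotype, which includes the Ptf1a-Cre, TREp53R270H and R26 rtTa/rtTa alleles, and grew from 500000 injected cells in NSG hosts aged 8 to 10 weeks. Doxycycline (dox) turns on the p53R270H transgene, together with a dsRed reporter, wherever rtTa is expressed, which in this design is in cells of the Ptf1a-Cre lineage and not in the host. The no-dox mice received 0 days of dox, the plus-dox mice 36 days (0.2 g/l with 5% sucrose in the drinking water), and the off-dox mice 33 days followed by 3 days without it, according to the sample labels, although the study's text places the removal at the time tumors became palpable. The comparisons ask which transcripts differ in tumors given dox throughout, and which differ after dox is withdrawn.

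Matricellular proteins are secreted into the extracellular matrix, where they bind collagens, growth factors and cell surface receptors rather than forming the scaffold itself. They tune adhesion, migration and growth factor availability, and many are induced in wounds, fibrosis and the dense stroma of pancreatic cancer. Fibronectin is a structural matrix glycoprotein and is included here as a binding partner of several of the others.

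Each value comes from a whole, unsorted tumor. Transplanted cells and host cells are both of mouse origin, so their reads cannot be separated, and a lower value in bulk tissue cannot be told apart between fewer cells of a type and less RNA per cell. Each mouse carried 2 tumors and which tumors shared a host is not given, so p-values, which take the tumors as independent, would be too small where hosts were shared within a group. Between 19845923 and 33137609 reads were counted on genes per tumor, and no member had fewer than 569 counts in any tumor. The share of mapped reads that fell on genes was 88.4% to 89.4% for no-dox tumors, 82.2% to 87.1% for plus-dox tumors and 81.1% to 85.8% for off-dox tumors. It therefore separates the no-dox group from the rest, and its part in the comparisons with that group cannot be told apart from dox. Trp53, the gene the transgene encodes, shows no rise with dox, since its RPKM (reads scaled by exonic length and by the total of mapped reads) ranged from 40.1 to 57.4 for no-dox, 40.4 to 56.0 for plus-dox and 41.6 to 45.4 for off-dox tumors. Its log2 fold change in plus-dox vs no-dox was 0.04 (adjusted p = 0.891), so the groups are named here by their labels, and expression of the transgene was not shown by these values. Host tissue varied between tumors, with summed RPKM of 10 skeletal muscle markers from 9.53 to 180.3 (no-dox), 152 to 476 (plus-dox) and 10.6 to 1298 (off-dox), and of 8 adipocyte markers from 16.9 to 1144, 28.0 to 720.1 and 39.0 to 333. The sums of 7 neutrophil markers ran from 34.4 to 56.4, 53.0 to 230.4 and 53.7 to 135, and those of 9 pericyte and smooth muscle markers from 160.4 to 235, 191 to 289.7 and 179 to 258, in the same order. Their part in the results was not tested. Plus-dox tumor 2 and off-dox tumor 4, called here the 2 that stand apart, differed most from the other tumors of their own groups over all genes. Chi-square per degree of freedom between libraries was 135.7 to 178.2 and 87.4 to 149.2 in their pairs. Other pairs of those groups gave 21.9 to 47.7 and 45.8 to 61.8. No-dox tumors 3 and 4 also reached 116.5, and the choice of these 2 tumors rests on no test. Values that move most without either are also given without it.

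The sequences just upstream of 5 members are shown because these are the members at an unadjusted p under 0.05 in at least 1 comparison. They are the 250 bases before the transcription start in the RefSeq promoter table (built on GRCm38.p6). Each was found once, letter for letter, on the member's chromosome in mm9, the build of the deposited files, directly before the gene's start in those files, and the coordinates are those of mm9. Bases in capitals match a short motif, searched on both strands. The 4 motifs were the TATA box (TATAAA), the site of the AP-1 factors (TGANTCA), the site of the TEAD factors (GGAATG) and the site of the RUNX factors (TGTGGT), and no matches overlapped.
Spp1, chr5:104863880-104864129, plus strand: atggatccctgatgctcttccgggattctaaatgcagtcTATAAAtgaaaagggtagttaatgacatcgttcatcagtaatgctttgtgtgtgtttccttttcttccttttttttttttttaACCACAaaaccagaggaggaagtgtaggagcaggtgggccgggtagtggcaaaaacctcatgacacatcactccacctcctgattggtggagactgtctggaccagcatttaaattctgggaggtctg
Postn, chr3:54164779-54165028, plus strand: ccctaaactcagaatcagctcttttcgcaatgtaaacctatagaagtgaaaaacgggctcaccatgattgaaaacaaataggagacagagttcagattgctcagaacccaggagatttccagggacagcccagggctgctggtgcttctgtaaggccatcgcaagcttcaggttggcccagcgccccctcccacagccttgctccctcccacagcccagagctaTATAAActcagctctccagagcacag
Thbs2, chr17:14831270-14831519, minus strand: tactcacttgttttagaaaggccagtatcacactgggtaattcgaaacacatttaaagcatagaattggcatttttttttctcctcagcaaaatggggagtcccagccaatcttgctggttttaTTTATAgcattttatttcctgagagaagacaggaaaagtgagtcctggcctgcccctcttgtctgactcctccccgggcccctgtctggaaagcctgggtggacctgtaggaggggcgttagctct
Sparc, chr11:55233583-55233832, minus strand: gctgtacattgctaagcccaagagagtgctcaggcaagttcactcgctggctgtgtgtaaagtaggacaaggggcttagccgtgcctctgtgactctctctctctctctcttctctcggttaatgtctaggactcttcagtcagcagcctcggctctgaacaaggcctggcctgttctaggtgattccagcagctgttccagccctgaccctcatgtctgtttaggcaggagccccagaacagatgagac
Cyr61, chr3:145312950-145313199, minus strand: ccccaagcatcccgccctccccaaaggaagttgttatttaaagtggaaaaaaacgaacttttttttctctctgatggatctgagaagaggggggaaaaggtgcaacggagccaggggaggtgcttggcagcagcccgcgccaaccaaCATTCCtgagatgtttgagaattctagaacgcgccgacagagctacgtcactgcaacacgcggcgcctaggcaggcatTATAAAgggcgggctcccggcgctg

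Postn and Cyr61 held TATAAA close to the start, at 26 to 21 and at 25 to 20 bases before it. In Spp1 and Thbs2 the same letters lay farther away, at 211 to 206 and at 126 to 121 bases before the start, the latter on the opposite strand. Cyr61 also held the TEAD letters (103 to 98 bases before the start) and Spp1 the RUNX letters (128 to 123 bases before), both on the opposite strand. The Sparc window held none of the 4 motifs, and the AP-1 letters occurred in 0 of the 10 upstream windows that the table gives for 7 of the members. Among all 32851 windows of this length, the TATA letters occurred in 12.4%, the AP-1 letters in 6.75%, the TEAD letters in 12.6% and the RUNX letters in 14%.

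The 10 genes spanned a wide range of expression. Spp1 had the highest mean over the 12 tumors (RPKM 3599) and was between the 3rd and 19th most abundant of all genes in each tumor. Sparc followed (1026), then Fn1 (510), Ctgf (274), Postn (157), Tnc (101), Thbs1 (65.1), Thbs2 (57.8), Cyr61 (47.8) and Thbs3 (8.31). Both ends of the order were fixed, with Spp1 above Sparc, Sparc above Fn1 and Cyr61 above Thbs3 in 12 of 12 tumors. Each of Fn1 over Ctgf, Ctgf over Postn, Postn over Tnc and Tnc over Thbs1 held in 11 of 12. Thbs1 and Thbs2 could not be ordered, since Thbs1 was higher in 7 of the 12 tumors, and Thbs2 exceeded Cyr61 in 10.

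**Figure D1:**
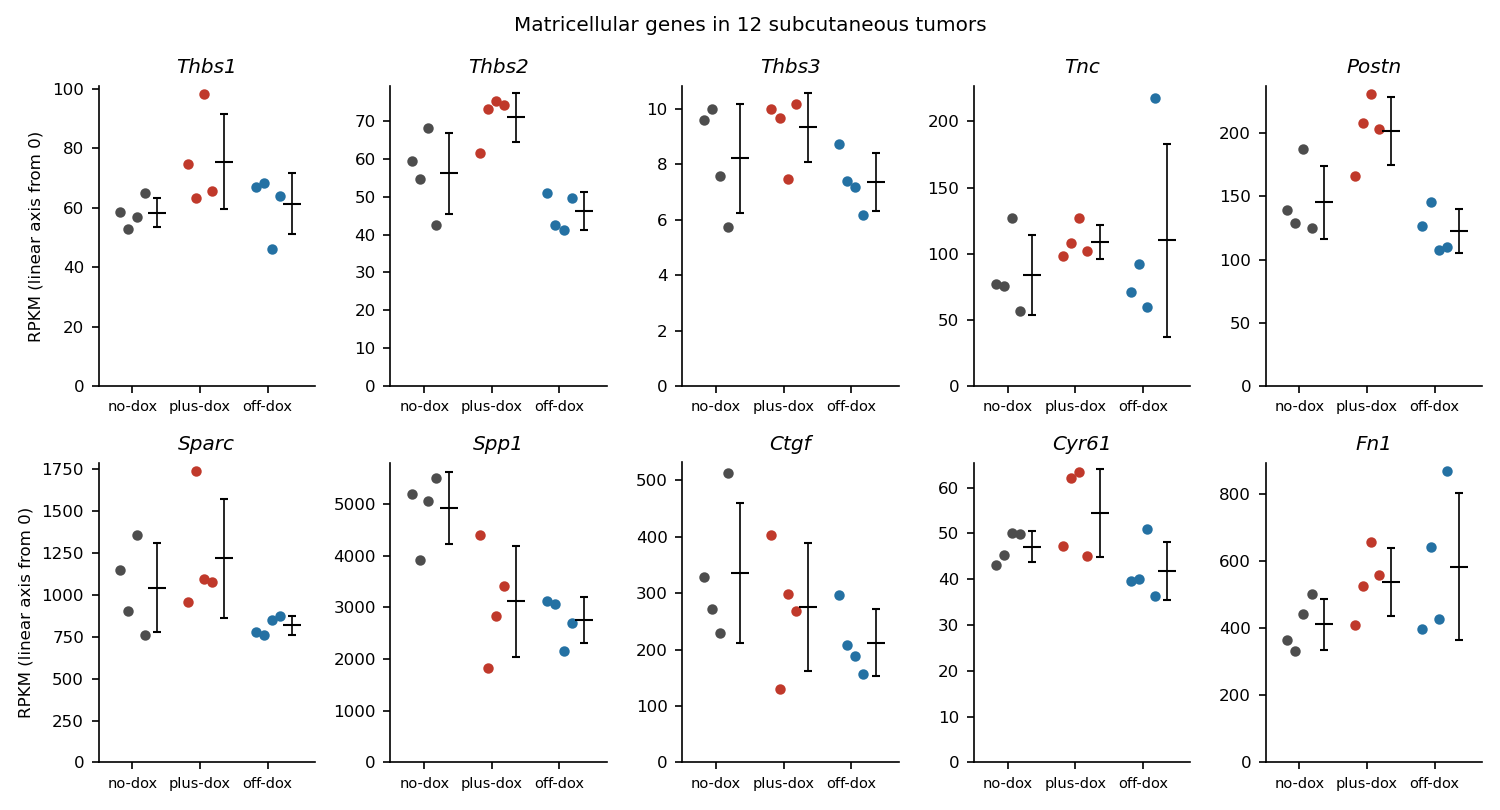
RPKM of each gene (linear vertical axes from 0) in every tumor, by group. Each point is 1 tumor in the order 1 to 4, and the bar beside each group is the mean with its SD (n = 4). The off-dox points of Spp1 lie below all no-dox points, those of Thbs2, Postn and Sparc lie below all plus-dox points, and off-dox tumor 4 is the highest point for Tnc (218) and Fn1 (866).

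Spp1 made up most of the summed RPKM of the 10 genes in nearly every tumor. Its share was 66.7% to 72.2% for no-dox tumors, 38.4% to 66.3% for plus-dox tumors and 53.1% to 62.9% for off-dox tumors. Every no-dox tumor had a larger share than every tumor of the other groups, although plus-dox tumor 1 (66.3%) lay close to the no-dox range. Plus-dox tumor 2 had the smallest share (38.4%), and there Sparc was nearly as abundant as Spp1, at an Spp1 to Sparc ratio of 1.05 against 3.74 to 7.22 in no-dox tumors.

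**Figure D2:**
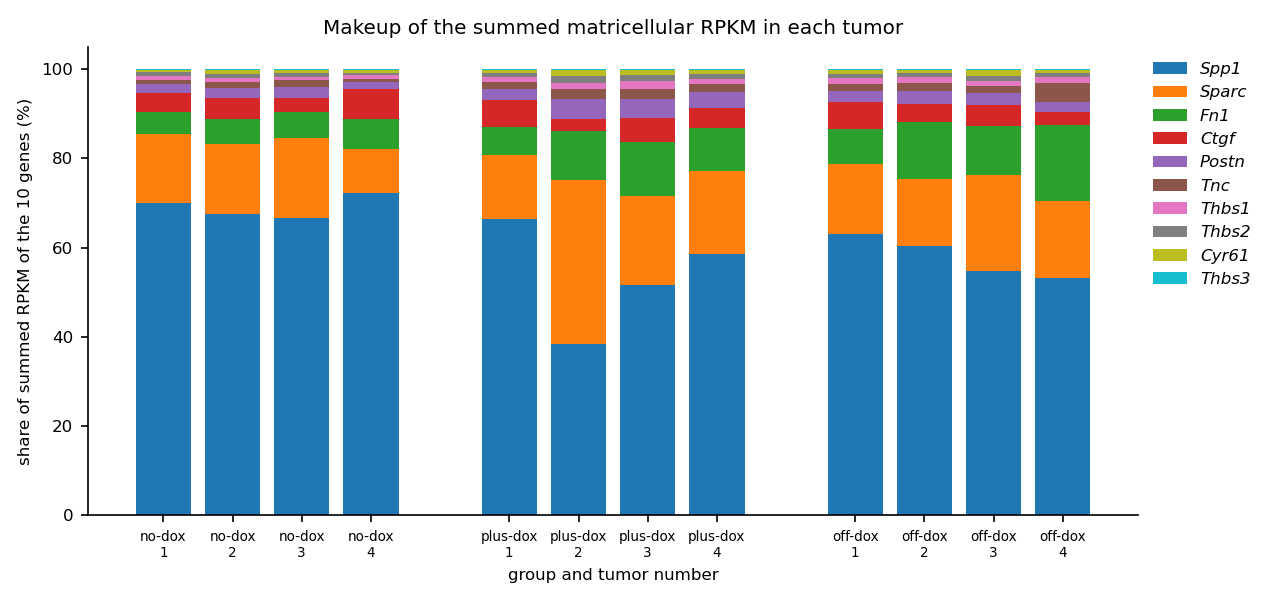
Share of the summed RPKM of the 10 genes (vertical axis, percent) taken by each gene in each tumor (horizontal axis, group and tumor number). Spp1 is the largest segment in all 12 bars and runs from 38.4% in plus-dox tumor 2 to 72.2% in no-dox tumor 4.

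With dox given throughout (plus-dox vs no-dox), 8 of the 10 genes had a log2 fold change above 0 and 2, Spp1 and Ctgf, below 0, against 51.4% above and 48.6% below over all genes tested, with a median of 0.29 against 0.013. None passed the limits of a call in edgeR's quasi-likelihood test (adjusted p under 0.1, over 1.5-fold, mean RPKM over 0.25 and length over 250 bp), and 0% of the 17561 genes did. DESeq2 called 0 of the 10, with or without moderated fold changes, against 0.729% and 0.512% of all genes. At an unadjusted p under 0.05 were 3 of the 10, Thbs2 and Postn higher and Spp1 lower, while 13.7% of all genes reached that level, 8% as higher and 5.67% as lower. The 4 plus-dox tumors did not lie wholly above or below the 4 no-dox tumors for any member, as they did for 8.86% of all genes.

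The off-dox vs no-dox comparison covers the earlier dox together with its withdrawal. In it, 3 of the 10 genes (Thbs1, Tnc and Fn1) had a log2 fold change above 0 and 7 below 0, against 50.7% and 49.3% of all genes, with a median of -0.19 against 0.007. Again edgeR called 0 of the 10, and 1.34% of all genes. DESeq2 called 1 of the 10, Spp1, with or without moderated fold changes, and 3.5% and 2.25% of all genes. Spp1 was also the single member at an unadjusted p under 0.05, a level reached by 20.4% of all genes and by 9.48% as lower, and the single member whose groups did not overlap, with all 4 off-dox tumors below all 4 no-dox tumors, as for 5.69% of all genes.

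Between off-dox and plus-dox tumors, 8 of the 10 genes were lower in the off-dox group and Tnc and Fn1 were marginally higher, against 50.1% lower and 49.8% higher of all genes, with a median log2 fold change of -0.34 against -0.0005. No gene of the 17561 was called by edgeR (0%), and every member had an adjusted p of 1. DESeq2 called none of the 10, and 0.0342% of all genes without and 0.0228% with moderated fold changes. At an unadjusted p under 0.05 were 4 of the 10, Thbs2, Postn, Sparc and Cyr61, all lower, while 3.06% of all genes reached that level and 1.81% did so as lower. Thbs2, Postn and Sparc did not overlap between the groups, each off-dox tumor lying below each plus-dox tumor, against 0.752% of all genes. The 3 comparisons share groups, so the directions in one are not independent of those in the next.

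**Figure D3:**
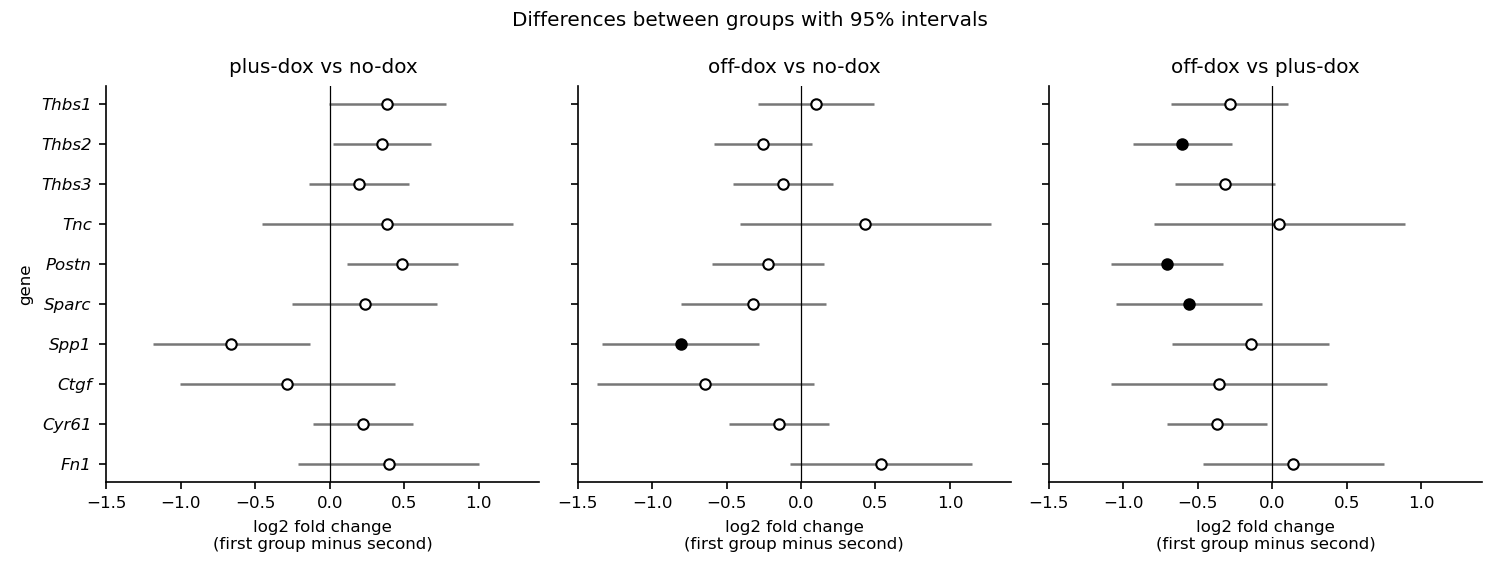
Log2 fold change (horizontal axis, first group minus second) of each gene in the 3 comparisons from edgeR, with its 95% interval as a line. Filled circles mark genes whose groups did not overlap, Spp1 in off-dox vs no-dox (-0.81) and Thbs2 (-0.60), Postn (-0.71) and Sparc (-0.56) in off-dox vs plus-dox.

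The thrombospondins are multimeric glycoproteins that bind calcium, collagens and cell surface receptors. Thbs1 and Thbs2 form trimers and restrain angiogenesis through CD36, and Thbs1 can also activate latent TGF-beta. Thbs1 (mm9, chr2:117937658-117952869, plus strand) had RPKM of 58.7, 52.9, 56.9 and 64.9 for no-dox tumors 1 to 4, 74.7, 63.3, 98.3 and 65.7 for plus-dox tumors and 66.9, 68.5, 46.1 and 64.1 for off-dox tumors. Plus-dox tumor 3 was the highest and off-dox tumor 3 the lowest, and the groups overlapped in each comparison. Its log2 fold change was 0.39 ± 0.18 (SE) for plus-dox vs no-dox (adjusted p = 0.370), 0.10 ± 0.18 for off-dox vs no-dox (adjusted p = 0.773) and -0.29 ± 0.18 for off-dox vs plus-dox (adjusted p = 1). The paper, by qRT-PCR, reports less Thbs1 with dox in KCip53 cell lines in culture, whereas the values here come from whole tumors.

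Thbs2 (chr17:14802507-14831269, minus strand), which also influences collagen fibril assembly, was the thrombospondin with the clearest difference between groups. RPKM was 59.4, 54.6, 68.3 and 42.5 for no-dox tumors 1 to 4, 61.4, 73.2, 75.2 and 74.1 for plus-dox tumors and 51.1, 42.6, 41.1 and 49.7 for off-dox tumors. All off-dox values lay below all plus-dox values, whereas the no-dox values reached into both ranges. The log2 fold change was -0.60 ± 0.15 (95% interval -0.94 to -0.27, unadjusted p = 0.0018, adjusted p = 1) for off-dox vs plus-dox. It was 0.35 ± 0.15 (adjusted p = 0.351) in plus-dox vs no-dox and -0.25 ± 0.15 (adjusted p = 0.359) for off-dox vs no-dox.

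Thbs3 (chr3:89019109-89030759, plus strand), a pentameric thrombospondin known best from skeletal tissue, was the least abundant member. RPKM was 9.59, 9.99, 7.57 and 5.74 for no-dox, 10.0, 9.67, 7.47 and 10.2 for plus-dox and 8.73, 7.39, 7.20 and 6.19 for off-dox tumors 1 to 4. Values overlapped in every comparison and the log2 fold changes were 0.20 ± 0.15, -0.12 ± 0.16 and -0.32 ± 0.16 in the order given above. Within a tumor, the ratio of Thbs1 to Thbs2 RPKM was 0.834 to 1.53 for no-dox, 0.866 to 1.31 for plus-dox and 1.12 to 1.61 for off-dox tumors, so that Thbs1 was the more abundant of the pair in all 4 off-dox tumors.

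Postn (chr3:54165029-54194963, plus strand) encodes periostin, which binds type I collagen and fibronectin and supports collagen fibril assembly, and is a classical product of activated fibroblasts. Its RPKM was 139, 129, 187 and 125 for no-dox, 166, 208, 231 and 203 for plus-dox and 127, 145, 108 and 110 for off-dox tumors 1 to 4. The lowest plus-dox tumor exceeded the highest off-dox tumor, and 3 of the 4 plus-dox tumors exceeded every no-dox tumor. Postn had the lowest unadjusted p of the 10 genes both in off-dox vs plus-dox (log2 fold change -0.71 ± 0.17, 95% interval -1.08 to -0.33, unadjusted p = 0.0014, adjusted p = 1) and in plus-dox vs no-dox (0.49 ± 0.17, unadjusted p = 0.015, adjusted p = 0.326). Off-dox and no-dox tumors differed by -0.22 ± 0.17 (adjusted p = 0.481).

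Sparc (chr11:55208003-55233582, minus strand) encodes osteonectin, a collagen-binding glycoprotein involved in collagen processing and counter-adhesion. RPKM was 1151, 901, 1357 and 762 for no-dox, 960, 1741, 1096 and 1075 for plus-dox and 780, 763, 850 and 877 for off-dox tumors 1 to 4. Plus-dox tumor 2 was far above the other plus-dox tumors, and the off-dox tumors were closely grouped, with a mean of 817 ± 54.4 (SD, n = 4) against 1218 ± 354 for plus-dox and 1043 ± 264 in no-dox tumors. The groups did not overlap in off-dox vs plus-dox, where the log2 fold change was -0.56 ± 0.22 (unadjusted p = 0.028, adjusted p = 1). Without plus-dox tumor 2 and off-dox tumor 4 together, the plus-dox vs no-dox value of 0.24 ± 0.22 came to 0.0035 and the off-dox vs plus-dox value to -0.38.

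Markers of fibroblasts moved in the same direction as these 3 genes. All 13 fibroblast markers measured, among them Col1a1, Col1a2, Col3a1, Dcn and Pdgfra, had a log2 fold change below 0 in off-dox vs plus-dox (median -0.47). There 6 of 13 were at an unadjusted p under 0.05, against 3.06% of all genes, and 0 were called by edgeR or DESeq2. Over all genes there, edgeR called 0% and DESeq2 0.0342% without moderated fold changes. In plus-dox vs no-dox, 11 of 13 were above 0 (median 0.54), with 4 of 13 at an unadjusted p under 0.05 against 13.7% of all genes. Of the 13 markers, edgeR called 0 in plus-dox vs no-dox, against 0% of all genes. DESeq2 called 1, Col1a1, without or with moderated fold changes, against 0.729% and 0.512% of all genes. The summed RPKM of the 13 markers ranged from 1279 to 2318 for no-dox, from 1815 to 3407 for plus-dox and from 1473 to 1703 for off-dox tumors, and none was at 0 in any tumor. The 10 endothelial markers were likewise all below 0 in off-dox vs plus-dox (median -0.47), with sums of 57.9 to 167 for plus-dox and 52.4 to 77.3 for off-dox tumors. Of these 10, 1 was at an unadjusted p under 0.05, against 3.06% of all genes. All 8 adipocyte markers (median -0.96) and 8 of 9 pericyte and smooth muscle markers (median -0.20) were below 0 there too. Above 0 were all 10 skeletal muscle, 9 of 11 macrophage, 9 of 12 epithelial and 3 of 7 neutrophil markers. The part of any of these cell types in the Thbs2, Postn and Sparc values was not tested. Over the 12 tumors, Pearson r of log2 RPKM with the log2 fibroblast sum was 0.87 for Thbs2, 0.83 for Postn and 0.93 for Sparc, and 0.92, 0.87 and 0.86 over the 10 tumors without the 2 that stand apart. Tnc, at 0.47 over the 12 tumors, reached 0.88 over those 10. With the endothelial sum, r was 0.62 for Thbs2, 0.57 for Postn and 0.79 for Sparc over the 12 tumors, and 0.87, 0.89 and 0.67 over the 10. With the adipocyte sum, r was 0.38, 0.22 and 0.52 over the 12, and 0.38, 0.26 and 0.62 over the 10. These correlations describe values that share libraries and depth.

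**Figure D4:**
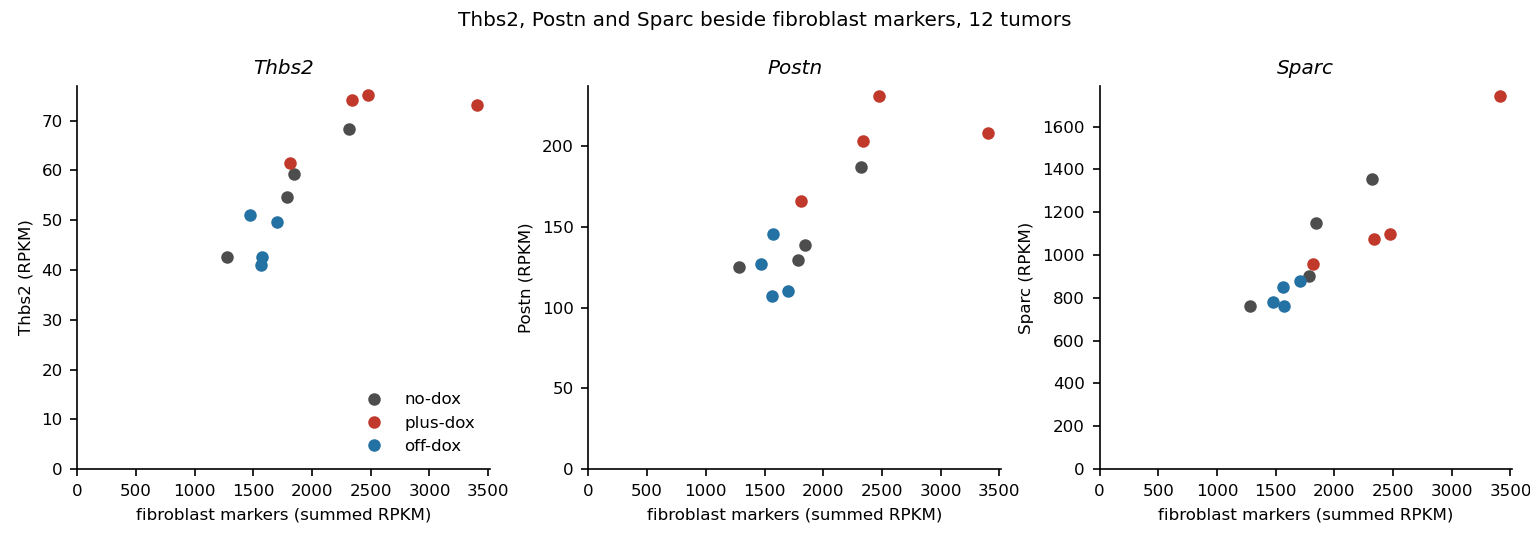
RPKM of Thbs2, Postn and Sparc (vertical axes) against the summed RPKM of 13 fibroblast markers (horizontal axes) in the 12 tumors, 1 point each, colored by group. Off-dox tumors fall in a narrow band of marker sums (1473 to 1703), and the plus-dox tumor farthest to the right (3407) is tumor 2.

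Spp1 (chr5:104864130-104870072, plus strand) encodes osteopontin, a secreted phosphoprotein that binds integrins and CD44 and is made by macrophages, epithelial tumor cells and bone cells. Its RPKM was 5199, 3917, 5067 and 5502 for no-dox, 4393, 1824, 2837 and 3405 for plus-dox and 3120, 3073, 2154 and 2700 for off-dox tumors 1 to 4. The highest off-dox tumor lay below the lowest no-dox tumor, and 3 of the 4 plus-dox tumors did as well, the exception being plus-dox tumor 1. Means were 4921 ± 694 (SD, n = 4) for no-dox, 3115 ± 1074 for plus-dox and 2762 ± 446 for off-dox tumors.

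In off-dox vs no-dox, Spp1 differed by -0.81 ± 0.24 on the log2 scale (95% interval -1.34 to -0.28, 0.571-fold, unadjusted p = 0.0060), which with an adjusted p of 0.116 missed the limit of 0.1 in edgeR and passed it in DESeq2 (adjusted p = 0.0173, and 0.0182 with moderated fold changes). Across the alternatives tried, the log2 fold change ran from -0.91 to -0.56 and the adjusted p from 0.017 to 1.00. It was called in 6 of 21 other fits, those being both DESeq2 fits, the filter of at least 10 counts in every tumor, the fits without plus-dox tumor 2 or without off-dox tumor 1, and the fit without the 2 tumors that stand apart. In plus-dox vs no-dox the difference was -0.66 ± 0.24 (adjusted p = 0.327), and off-dox differed from plus-dox by -0.15 ± 0.24 (95% interval -0.67 to 0.38, adjusted p = 1).

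Spp1 is made by several cell types in tumors, so marker levels are given beside it. The 12 epithelial markers, among them Epcam, Cdh1, Krt8, Krt18 and Krt19, summed to RPKM of 2293 to 3072 for no-dox, 1364 to 2018 for plus-dox and 1056 to 2635 for off-dox tumors. In off-dox vs no-dox, 9 of the 12 were below 0 (median -0.57), and in plus-dox vs no-dox 10 of the 12 (median -0.62). None was called by edgeR in either, against 1.34% and 0% of all genes. DESeq2 without moderated fold changes called 1 in both, Krt8, against 3.5% and 0.729% of all genes. With them it also called 1 in both, against 2.25% and 0.512%. Of the 12 epithelial markers, 1 was at an unadjusted p under 0.05 in off-dox vs no-dox, lower, against 20.4% of all genes. In plus-dox vs no-dox there were 2, 1 higher and 1 lower, against 13.7% of all genes. The 11 macrophage markers summed to 2132 to 3238 for no-dox, 2533 to 3045 for plus-dox and 2385 to 4190 for off-dox tumors, and 9 of the 11 were above 0 in off-dox vs no-dox (median 0.17). Over the 12 tumors, Pearson r of log2 Spp1 with the log2 sum was 0.74 for epithelial, -0.25 for macrophage, -0.77 for neutrophil, -0.61 for endothelial and -0.55 for pericyte and smooth muscle markers, as a description. Over the 10 tumors without the 2 that stand apart, these were 0.67, -0.46, -0.62, -0.18 and -0.39. With the skeletal muscle sum, r of Spp1 was -0.47 over the 12 tumors and -0.71 over the 10. All 10 skeletal muscle markers were above 0 in off-dox vs no-dox (median 2.82). Of these, 7 were at an unadjusted p under 0.05 in edgeR, against 20.4% of all genes, and edgeR called 1, against 1.34%. DESeq2 called 5 of the 10 without and 1 with moderated fold changes, against 3.5% and 2.25% of all genes. Of the 7 neutrophil markers, edgeR called 2 higher in off-dox vs no-dox, Cxcr2 and Csf3r, against 1.34% of all genes. DESeq2 called the same 2 without moderated fold changes, and 2 with them. The part of these cells in the Spp1 values was not tested.

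**Figure D5:**
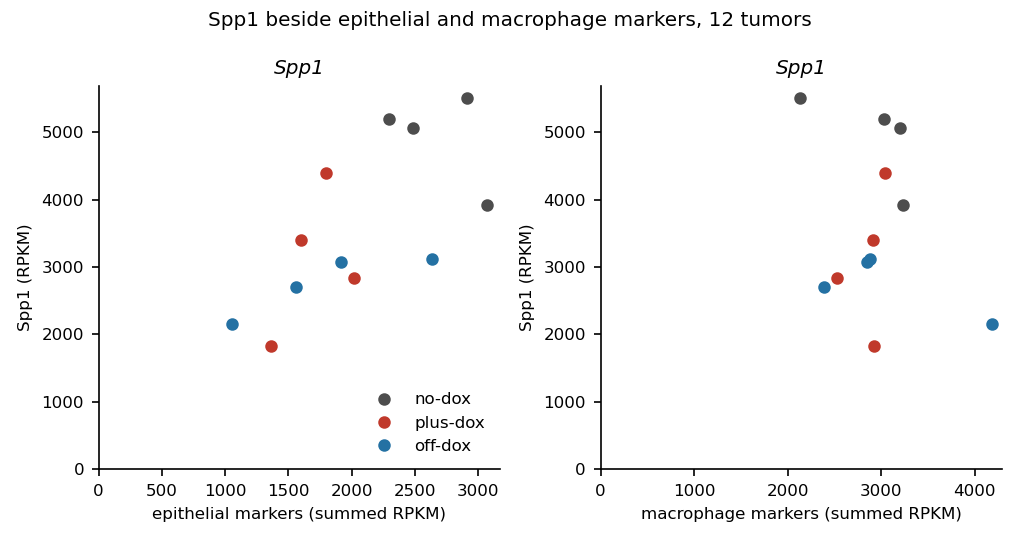
RPKM of Spp1 (vertical axes) against the summed RPKM of 12 epithelial markers (left) and 11 macrophage markers (right) in the 12 tumors, colored by group. In the left plot the no-dox tumors lie to the upper right, with epithelial sums of 2293 to 3072, and off-dox tumor 1 lies beside them on the horizontal axis (2635) at a lower Spp1 value (3120).

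Ctgf and Cyr61 encode CCN proteins, small modular proteins that bind integrins and growth factors and are widely used as readouts of YAP and TEAD activity. Ctgf (chr10:24315248-24318488, plus strand) had RPKM of 329, 273, 229 and 512 for no-dox, 403, 130, 299 and 269 for plus-dox and 296, 208, 188 and 156 for off-dox tumors 1 to 4. It varied strongly within groups, with a coefficient of variation of 37.2%, 40.9% and 28.3%, and the groups overlapped throughout. Its log2 fold change was -0.64 ± 0.33 (adjusted p = 0.296) for off-dox vs no-dox and -0.28 ± 0.33 (adjusted p = 0.690) in plus-dox vs no-dox, and the latter became 0.02 without no-dox tumor 4, the highest of the 12, and -0.05 without plus-dox tumor 2.

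Cyr61 (chr3:145309935-145312949, minus strand) was far steadier. RPKM was 43.2, 45.3, 50.0 and 49.9 for no-dox, 47.2, 62.1, 63.4 and 45.1 for plus-dox and 39.6, 40.0, 50.9 and 36.4 for off-dox tumors 1 to 4. Plus-dox tumors 2 and 3 were the highest, and off-dox tumor 3 overlapped the plus-dox range. The log2 fold change was -0.37 ± 0.15 (95% interval -0.71 to -0.04, unadjusted p = 0.032, adjusted p = 1) for off-dox vs plus-dox, 0.22 ± 0.15 for plus-dox vs no-dox and -0.15 ± 0.15 for off-dox vs no-dox. The ratio of Ctgf to Cyr61 RPKM within a tumor ran from 4.57 to 10.3 for no-dox, 2.10 to 8.55 for plus-dox and 3.69 to 7.48 for off-dox tumors, so the 2 CCN genes did not keep 1 proportion.

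Tnc (chr4:63620819-63708049, minus strand) encodes tenascin-C, a hexameric glycoprotein of wound and tumor stroma. RPKM was 77.2, 75.5, 127 and 56.4 for no-dox, 98.1, 108, 127 and 102 for plus-dox and 70.9, 92.2, 59.9 and 218 for off-dox tumors 1 to 4. Off-dox tumor 4 was far above every other tumor, whereas the remaining off-dox tumors lay below all plus-dox tumors. The log2 fold changes were 0.38 ± 0.39 for plus-dox vs no-dox (adjusted p = 0.643), 0.43 ± 0.39 for off-dox vs no-dox (adjusted p = 0.544) and 0.05 ± 0.39 for off-dox vs plus-dox (adjusted p = 1). Both off-dox values turned negative without off-dox tumor 4, to -0.17 against no-dox and -0.55 against plus-dox.

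Fn1 (chr1:71632097-71699745, minus strand) encodes fibronectin, which cells assemble into fibrils through integrins and which carries binding sites for Tnc, Thbs1 and Postn. RPKM was 364, 333, 443 and 502 for no-dox, 409, 524, 656 and 558 for plus-dox and 396, 642, 428 and 866 for off-dox tumors 1 to 4. Off-dox tumor 4 was again the highest, and the groups overlapped in every comparison. The log2 fold change was 0.54 ± 0.28 (95% interval -0.07 to 1.15, adjusted p = 0.296) for off-dox vs no-dox, 0.40 ± 0.28 (adjusted p = 0.515) in plus-dox vs no-dox and 0.14 ± 0.28 (adjusted p = 1) for off-dox vs plus-dox. Without off-dox tumor 4, the off-dox values came to 0.26 against no-dox and -0.14 against plus-dox. Relative to Sparc in the same tumor, Fn1 was 0.316 to 0.659 for no-dox, 0.301 to 0.599 for plus-dox and 0.504 to 0.988 for off-dox tumors.

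The members did not vary as 1 block from tumor to tumor. Of the 45 pairs of members, 28 had a Pearson r of log2 CPM above 0 over the 12 tumors and 12 an r above 0.5, with a median of 0.12. The closest pairs were Thbs2 and Postn (0.89), Thbs2 and Sparc (0.81), Spp1 and Ctgf (0.78), Tnc and Fn1 (0.73) and Postn and Sparc (0.71). Without the 2 tumors that stand apart, these were 0.89, 0.82, 0.65, 0.48 and 0.69, and the closest pair was then Tnc and Postn, at 0.92 against 0.39 over the 12. Tnc and Thbs2 likewise had 0.83 over the 10 and 0.51 over the 12. The lowest values were between Thbs3 and Fn1 (-0.53) and between Tnc and Ctgf (-0.46). These coefficients are a description of libraries that differ in depth and makeup.

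Among 12694 genes with a mean RPKM over 1, the gene most like Thbs2 over the 12 tumors by Pearson r of log2 CPM was Col1a2 (0.90), the alpha-2 chain of type I collagen, followed by Fbln7 and Spon1. For Sparc these were Lrrc17 (0.97), Rcn3 and Gpx3, and for Postn 3632451O06Rik (0.92), Fgf18 and Thbs2. Spp1 was closest to Plscr1 (0.94), Zscan21 and Ttc33, Ctgf to Gata6 (0.97), Lbp and Lmo4, and Cyr61 to Apln (0.89), Lrrn4cl and Ftl1. Fn1 was closest to Smad3 (0.96), Map3k2 and Large, Tnc to Wnt2b (0.88), Tigit and Tmem200a, Thbs1 to Mtf1 (0.82), Basp1 and Tmem2, and Thbs3 to Cxcl9 (0.83), Gsg2 and H2-T10. Over the 10 tumors, r fell most for Tmem200a with Tnc, from 0.87 to 0.74. Ftl1 and H2-T10 have near-identical relatives in the genome, so their counts are uncertain.

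A further 23 matricellular and related genes were measured. None was called by edgeR in any comparison, against 1.34% of all genes in off-dox vs no-dox and 0% in the others. Of the 23, 17 were below 0 in off-dox vs plus-dox (median -0.38), 18 above 0 in plus-dox vs no-dox (median 0.31) and 13 below 0 in off-dox vs no-dox (median -0.08). At an unadjusted p under 0.05 were 4 (lower), 2 (higher) and 2 (lower) of them, in the same order, against 3.06%, 13.7% and 20.4% of all genes. DESeq2 called none in any comparison, against 0.0342%, 0.729% and 3.5% of all genes without moderated fold changes, in that order. Wisp2, a CCN gene, averaged RPKM 24.2 for no-dox, 32.2 for plus-dox and 19.2 for off-dox tumors and differed by -0.73 ± 0.29 between off-dox and plus-dox (adjusted p = 1). Ccdc80, a matrix protein of fibroblasts and fat, averaged 38.2, 39.7 and 27.5 and differed by -0.51 ± 0.17 between the same groups. Sparcl1, the closest relative of Sparc, averaged 20.6, 31.6 and 25.7, with 0.64 ± 0.23 for plus-dox vs no-dox (adjusted p = 0.327). The most abundant of the list, Fbln2 (a fibulin that binds fibronectin), averaged 240.2, 291 and 301, and Fstl1, a secreted SPARC-family glycoprotein, 178, 198 and 147.

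Of 22 receptor genes for these ligands, edgeR called 0 in any comparison, against 1.34% of all genes in off-dox vs no-dox and 0% in the others. Log2 fold changes were above 0 for 15 of 22 in plus-dox vs no-dox (median 0.19) and in off-dox vs no-dox (median 0.18), and for 11 of 22 in off-dox vs plus-dox. At an unadjusted p under 0.05 were 5 (4 higher, 1 lower), 7 (6 higher, 1 lower) and 0 of them, against 13.7%, 20.4% and 3.06% of all genes. DESeq2 without moderated fold changes called 1 in plus-dox vs no-dox, Lrp1, against 0.729% of all genes. In off-dox vs no-dox it called 2, Stab1 and Itga9 (the latter named after its values were seen), against 3.5% of all genes. With moderated fold changes it called none of the receptors. Itga4, an integrin subunit that binds osteopontin and fibronectin, averaged RPKM 1.58 for no-dox, 2.02 for plus-dox and 2.22 for off-dox tumors, and its off-dox vs no-dox difference of 0.52 ± 0.14 had an adjusted p of 0.097 but stayed under 1.5-fold. Lrp1, an endocytic receptor that clears thrombospondins, averaged 29.6, 45.3 and 41.6, at 0.62 ± 0.17 for plus-dox vs no-dox (adjusted p = 0.322). Stab1, a macrophage scavenger receptor for Sparc, averaged 24.6, 33.9 and 37.0, all 4 plus-dox tumors lying above all no-dox tumors. Sdc4, a syndecan that binds fibronectin and tenascin-C, went the other way with means of 176, 130 and 127. All 4 plus-dox tumors lay below all no-dox tumors (-0.43 ± 0.17, adjusted p = 0.334). Of the 22 receptors, 1 was thus wholly higher and 1 wholly lower in plus-dox vs no-dox, against 8.86% of all genes in either direction. The most abundant receptors, Itgb1 and Sdc1, had means of 256, 265 and 269 and of 267, 224 and 214.

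The 19 other YAP and TEAD targets measured were compared because Ctgf and Cyr61 belong to that set. None was called by edgeR, against 1.34% of all genes in off-dox vs no-dox and 0% in the other comparisons. Log2 fold changes were above 0 for 15 of 19 in plus-dox vs no-dox (median 0.27), 14 of 19 in off-dox vs no-dox (median 0.18) and 7 of 19 in off-dox vs plus-dox (median -0.08). At an unadjusted p under 0.05 were 2 (higher), 5 (4 higher, 1 lower) and 1 (lower) of them, against 13.7%, 20.4% and 3.06% of all genes. DESeq2 called 1, Dock5 in off-dox vs no-dox, and none with moderated fold changes, against 3.5% and 2.25% of all genes in that comparison. Ankrd1, a further standard target, averaged RPKM 51.5 for no-dox, 64.0 for plus-dox and 79.4 for off-dox tumors, with 0.65 ± 0.25 for off-dox vs no-dox (adjusted p = 0.183). Igfbp3, the most abundant of the list, averaged 303, 379 and 331. Amotl1 averaged 6.67, 9.77 and 9.15, at 0.56 ± 0.15 for plus-dox vs no-dox (adjusted p = 0.322) and 0.48 ± 0.15 for off-dox vs no-dox (adjusted p = 0.126).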

How the data were processed

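Per the labels and the methods, the authors prepared polyA+, non-strand-specific libraries, mapped 50-bp single-end reads to mm9 with TopHat (1.4.1) and counted them over the unambiguous exonic span of each gene. The deposited files give, for 22630 genes, expected counts (exonic base-wise coverage in reads, not all whole numbers) and RPKM (scaled by exonic length and total mapped reads). Reads from overlapping genes on opposite strands cannot be told apart.

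Counts were rounded and tested with edgeR (4.0.16), with TMM scaling, at least 10 counts summed over the 12 tumors, 1 fit of the 3 groups and Benjamini-Hochberg adjustment over 17561 genes. The limits of a call are those of the authors, who used DESeq2. DESeq2 (1.42.0), RLE scaling, other filters, a replicate block, a covariate and left-out tumors were alternatives. Overlap of groups was judged on log2 CPM with a prior count of 2. The 95% intervals come from edgeR's standard errors. On simulated counts for off-dox vs no-dox (17384 genes, of which 200 carried a log2 change of 2), edgeR recovered 93.5% and DESeq2 97%, with or without moderated fold changes. Of edgeR's calls 4.59% were false, against 20.8% of DESeq2's calls without and 17.1% with moderated fold changes. These counts were drawn with edgeR's own estimate of spread. The largest change of a member in that comparison was -0.81, so recovery and error at the members' sizes of change were not tested. No 2 libraries of a group were copies of each other. The gene lists come from general knowledge. The members and lists were chosen with earlier results of these data known. Genes named beside the members were taken, for each list, from the 3 with the lowest unadjusted p in each comparison and the 3 with the highest mean RPKM, and for each member the 3 most similar genes. A further allele of the line is not reported here.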

Additional observations from a re-analysis of the deposited data

Results flagged for a closer look

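Thbs2 stood out within the plus-dox group, where tumor 1 had an RPKM of 61.4 against 73.2 to 75.2 in the other 3 tumors, a gap of 0.850 of the group's whole range. About 1 in 20 groups of 4 show such a gap by chance, and 30 groups were examined. Thbs2 values also lay on opposite sides of the no-dox mean of 56.2, every plus-dox tumor above and every off-dox tumor below it. The no-dox tumors, at 42.5 to 68.3, overlapped both groups, and neither difference from them passed the limit in edgeR (adjusted p = 0.351 for plus-dox and 0.359 for off-dox). The difference between the off-dox and plus-dox groups was -0.60 on the log2 scale, with an adjusted p of 1 in edgeR.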

How the results depend on the processing

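The call of Spp1 in off-dox vs no-dox depended on the processing. The number of members called there was 0 as reported and 1, Spp1, with at least 10 counts in every tumor, without plus-dox tumor 2 and off-dox tumor 4 together, and with DESeq2 either way, and it was 0 to 1 when each tumor was left out. The other fits called 0 members in each comparison. Of 660 log2 fold changes of members under alternatives, 642 kept their direction and side of the limit and 12 reversed. The reversed values in off-dox vs no-dox were -0.025 for Thbs1 and 0.10 for Thbs3 with the share of mapped reads on genes as covariate, and -0.17 for Tnc without off-dox tumor 4, alone or with plus-dox tumor 2. In off-dox vs plus-dox, Tnc was -0.035 with the replicate block, -0.55 without both tumors or off-dox tumor 4 alone and -0.01 without plus-dox tumor 1. Fn1 was -0.14 without both tumors or off-dox tumor 4 alone, and Spp1 0.047 without plus-dox tumor 1. Ctgf was 0.020 in plus-dox vs no-dox without no-dox tumor 4. Leaving out 1 tumor gave ranges from lowest to highest of -0.50 to 0.02 for Ctgf in plus-dox vs no-dox, -0.17 to 0.73 for Tnc in off-dox vs no-dox, and -0.55 to 0.26 for Tnc, -0.33 to 0.05 for Spp1 and -0.14 to 0.29 for Fn1 in off-dox vs plus-dox.

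Over all genes, the count called in off-dox vs no-dox (235) was 122 with no filter on counts, 365 with at least 10 counts in every tumor, 3 with the 8 tumors alone, 472 without the 2 tumors that stand apart, 615 and 396 with DESeq2 (without and with moderated fold changes), 0 with the covariate, the replicate block or an adjusted p under 0.05, and 0 to 789 with 1 tumor left out. DESeq2 gave 128 and 90 in plus-dox vs no-dox, where leaving out 1 tumor gave 0 to 3, and 6 and 4 in off-dox vs plus-dox, where it gave 0 to 1. The cause of these shifts was not tested. Same-numbered tumors were on average no more alike than others. Their deviations correlated at a mean of -0.09 (12 pairs, -0.45 to 0.57) against 0.04 for others (36 pairs, -0.68 to 0.67). The labels give no pairing by number, and such means cannot exclude a shared host or batch for some numbers.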

Other observations

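Immediate early and wild-type p53 target genes were compared as further gene groups. Per the paper, the KCip53 cell lines it sequenced had lost the wild-type p53 sequence. None of the 20 immediate early genes was called by edgeR, against 1.34% of all genes in off-dox vs no-dox and 0% in the other comparisons. In plus-dox vs no-dox, off-dox vs no-dox and off-dox vs plus-dox, 1 (higher), 3 (1 higher, 2 lower) and 0 were at an unadjusted p under 0.05. The shares of all genes were 13.7%, 20.4% and 3.06%. DESeq2 called 1, Egr2 in off-dox vs no-dox, and none with moderated fold changes, against 3.5% and 2.25% of all genes in that comparison. Junb, an AP-1 subunit, averaged RPKM 143 for no-dox, 121 for plus-dox and 110.3 for off-dox tumors, Fos 32.2, 22.0 and 19.6, and Egr2 2.77, 4.44 and 4.14, with an Egr2 log2 fold change of 0.70 ± 0.21 for plus-dox vs no-dox (adjusted p = 0.322).

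None of the 14 wild-type p53 targets was called by edgeR or DESeq2. In off-dox vs no-dox, edgeR called 1.34% of all genes, and DESeq2 3.5% without moderated fold changes. At an unadjusted p under 0.05 were 2 (1 higher, 1 lower), 3 (1 higher, 2 lower) and 0 of the 14, against 13.7%, 20.4% and 3.06% of all genes. These are in the order plus-dox vs no-dox, off-dox vs no-dox and off-dox vs plus-dox. Zmat3, an RNA-binding target of p53, averaged RPKM 2.94 for no-dox, 4.03 for plus-dox and 3.91 for off-dox tumors, and had the lowest adjusted p of the list in off-dox vs no-dox (0.090, log2 fold change 0.44 ± 0.11, under 1.5-fold). Perp, a p53 target of epithelial junctions, averaged 70.2, 47.1 and 48.6 (-0.57 ± 0.20 in plus-dox vs no-dox, adjusted p = 0.326), and Phlda3 averaged 69.3, 58.7 and 53.5. In plus-dox vs no-dox, 1 of the 14 was wholly higher (Zmat3) and 2 were wholly lower (Perp and Phlda3). Over all genes, groups did not overlap in either direction for 8.86%.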
